A study of Mus musculus with 14 samples.

Results

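Claudins, occludin and the scaffold protein ZO-1 build the tight junction, and 8 of their genes were followed in mouse liver: Cldn1, Cldn2, Cldn3, Cldn5, Cldn12, Cldn14, Ocln and Tjp1. They were chosen with earlier results of these data known, and taken by symbol through the platform annotation of the array. All 8 were among the 12076 genes tested. The 8 genes had 17 of the 45101 probe sets, of which 15 passed the filter on dim signal, and each gene was read by the brightest of its probe sets. The livers were of lsPERK genotype, which the labels give as a knock-out, or wild type (WT). PERK, encoded by Eif2ak3, is the endoplasmic reticulum (ER) kinase that phosphorylates eIF2 under ER stress. The comparisons set the answer of lsPERK liver to such stress beside that of WT liver. Tunicamycin, which blocks N-linked glycosylation and so stresses the ER, was given at 1 mg/kg and the liver taken after 6 h, and the controls had 0.3% DMSO. There were 4 arrays of lsPERK tunicamycin, 3 of lsPERK control, 4 of WT tunicamycin and 3 of WT control liver, with 1 array per sample. The labels name no age, strain, Cre or deleted part of the gene, give no time for the DMSO controls, and do not state whether each replicate was another animal. The p-values therefore rest on the scatter among these arrays, which may be technical.

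Tight junctions seal the space between neighbouring epithelial cells, and in the liver they part the bile canaliculus from the blood side of the hepatocyte. Claudins are membrane-spanning proteins whose loops set what may pass: some tighten the seal and others, claudin-2 above all, open a channel for small cations and water. Occludin is a second membrane-spanning component, and ZO-1 ties both to the actin cytoskeleton from the cytoplasmic side.

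Levels below are quantile-normalized MAS5 intensities, and differences are on the log2 scale, with standard errors (SE) and adjusted p from a limma fit over all genes (Benjamini-Hochberg, called under 0.05). Eif2ak3, the targeted gene, averaged log2 8.14 ± 0.18 (SD, n = 4) in lsPERK tunicamycin, 7.12 ± 0.16 (n = 3) in lsPERK control, 10.89 ± 0.23 (n = 4) in WT tunicamycin and 8.40 ± 0.45 (n = 3) in WT control liver. Its signal in lsPERK liver stayed above the filter threshold and rose 2.02-fold under tunicamycin (adjusted p = 0.00283). Under tunicamycin lsPERK liver had less of it than WT liver (−2.75, SE 0.18, adjusted p = 1.46e-07), while the control difference of −1.27 was not called (SE 0.21, adjusted p = 0.309). The labels do not say whether the probe set lies in the deleted part. Albumin (Alb) ran from 13009 to 16824 over the arrays, and the summed hepatocyte markers from 93086 to 98755. Arrays of a group correlated at 0.942 to 0.98. The Xist signal split the arrays into 6 high and 8 low, with both kinds in every group, and differences within each kind are given where they bear on a result.

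The promoters of the 3 genes with the largest differences between genotypes under tunicamycin, Cldn1, Cldn2 and Cldn14, are shown because these genes parted the genotypes most. The sequences are from RefSeq (build GRCm38.p6), 250 bases before and 50 after the gene's start, and 7 of the 8 genes had such a window at the annotated gene start. Cldn12 and Cldn14 had 3 promoter windows each and Ocln had 2, and only the window at the gene start was searched. The capitals mark matches to a C/EBP core (TTNNGNAA), a CCAAT box (CCAAT) or a TATA box (TATAAA) on either strand.
Cldn1, chr16:26371790-26372089, minus strand: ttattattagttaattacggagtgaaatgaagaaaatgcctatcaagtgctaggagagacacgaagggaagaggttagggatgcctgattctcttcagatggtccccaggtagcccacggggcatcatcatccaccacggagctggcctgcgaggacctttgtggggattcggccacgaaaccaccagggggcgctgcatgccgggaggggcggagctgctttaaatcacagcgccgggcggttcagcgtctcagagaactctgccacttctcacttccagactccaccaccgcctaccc
Cldn2, chrX:139800558-139800857, plus strand: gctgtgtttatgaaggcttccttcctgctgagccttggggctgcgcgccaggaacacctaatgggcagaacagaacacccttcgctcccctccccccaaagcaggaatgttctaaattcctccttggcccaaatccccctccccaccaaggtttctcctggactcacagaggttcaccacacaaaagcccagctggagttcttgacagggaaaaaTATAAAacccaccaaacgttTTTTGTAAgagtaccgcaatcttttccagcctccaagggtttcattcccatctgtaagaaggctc
Cldn14, chr16:94008788-94009087, minus strand: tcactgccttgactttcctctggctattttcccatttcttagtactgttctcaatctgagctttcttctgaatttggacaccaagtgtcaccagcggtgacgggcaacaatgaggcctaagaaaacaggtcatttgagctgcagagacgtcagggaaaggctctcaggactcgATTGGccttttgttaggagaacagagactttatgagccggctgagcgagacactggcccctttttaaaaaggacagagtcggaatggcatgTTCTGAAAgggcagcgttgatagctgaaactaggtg

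The Cldn2 window held a TATA box that began 35 bases before the start and a C/EBP core that began 15 bases before it. The Cldn14 window held a CCAAT box (read as ATTGG) beginning 77 bases before the start and a C/EBP core after it, and the Cldn1 window held none of the 3 motifs. The C/EBP-ATF composite element (TGATGNAA), the cyclic AMP response element (TGACGTCA), the core of the unfolded protein response element (TGACGTGG) and the ER stress element (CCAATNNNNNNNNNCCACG) were in 0 of the 7 windows. Over 19827 promoter windows of the same length the C/EBP core stood in 43.3%, the CCAAT box in 38.2%, the TATA box in 16.3%, the composite element in 4.52%, the cyclic AMP element in 1.67%, the unfolded protein response core in 0.57% and the ER stress element in 0.126%. The ER stress element begins with a CCAAT box, and no 2 matches overlapped in the windows printed. The GC content of the windows was 56% for Cldn1, 51.3% for Cldn2 and 48% for Cldn14, against a median of 50.7% over all windows. A match is a run of letters and not evidence of binding.

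With each gene read by its brightest probe set, tunicamycin raised Cldn14 and lowered Ocln in lsPERK liver, whereas in WT liver it lowered 7 of the 8 genes. The lsPERK fall depends on that reading: with the mean of a gene's probe sets Cldn3 was called lower (−0.39, adjusted p = 0.0295) and Ocln was not (−0.50, adjusted p = 0.0781). Of all genes tested, 15.7% were called in lsPERK liver (8.42% higher and 7.29% lower) and 46.7% in WT liver (20.7% higher and 26.0% lower). The members' median log2 difference was −0.12 in lsPERK liver and −0.98 in WT liver, against medians of −0.02 and −0.13 over all genes. In lsPERK liver the groups did not overlap for 1 higher member, Cldn14, and for 1 lower member, Cldn3, which was not called, and for 13.4% and 13.8% of all genes. In WT liver 5 falling and 0 rising members did so, as did 26.5% and 21.6% of all genes. Under tunicamycin, 5 members were higher in lsPERK than in WT liver and 0 were lower, where 35.3% of all genes were called, 18.5% higher and 16.8% lower. Groups did not overlap there for 4 higher and 0 lower members, and for 18.7% and 17.7% of all genes. The difference of both responses, lsPERK minus WT, was called for 4 members, all higher: Cldn1, Cldn2, Cldn3 and Cldn14. Over all genes it was called for 19.9%, with 10.2% higher and 9.71% lower. These comparisons share arrays, so they are not separate lines of support. In bulk tissue, fewer cells of a type and less RNA per cell cannot be told apart.

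**Figure D1:**
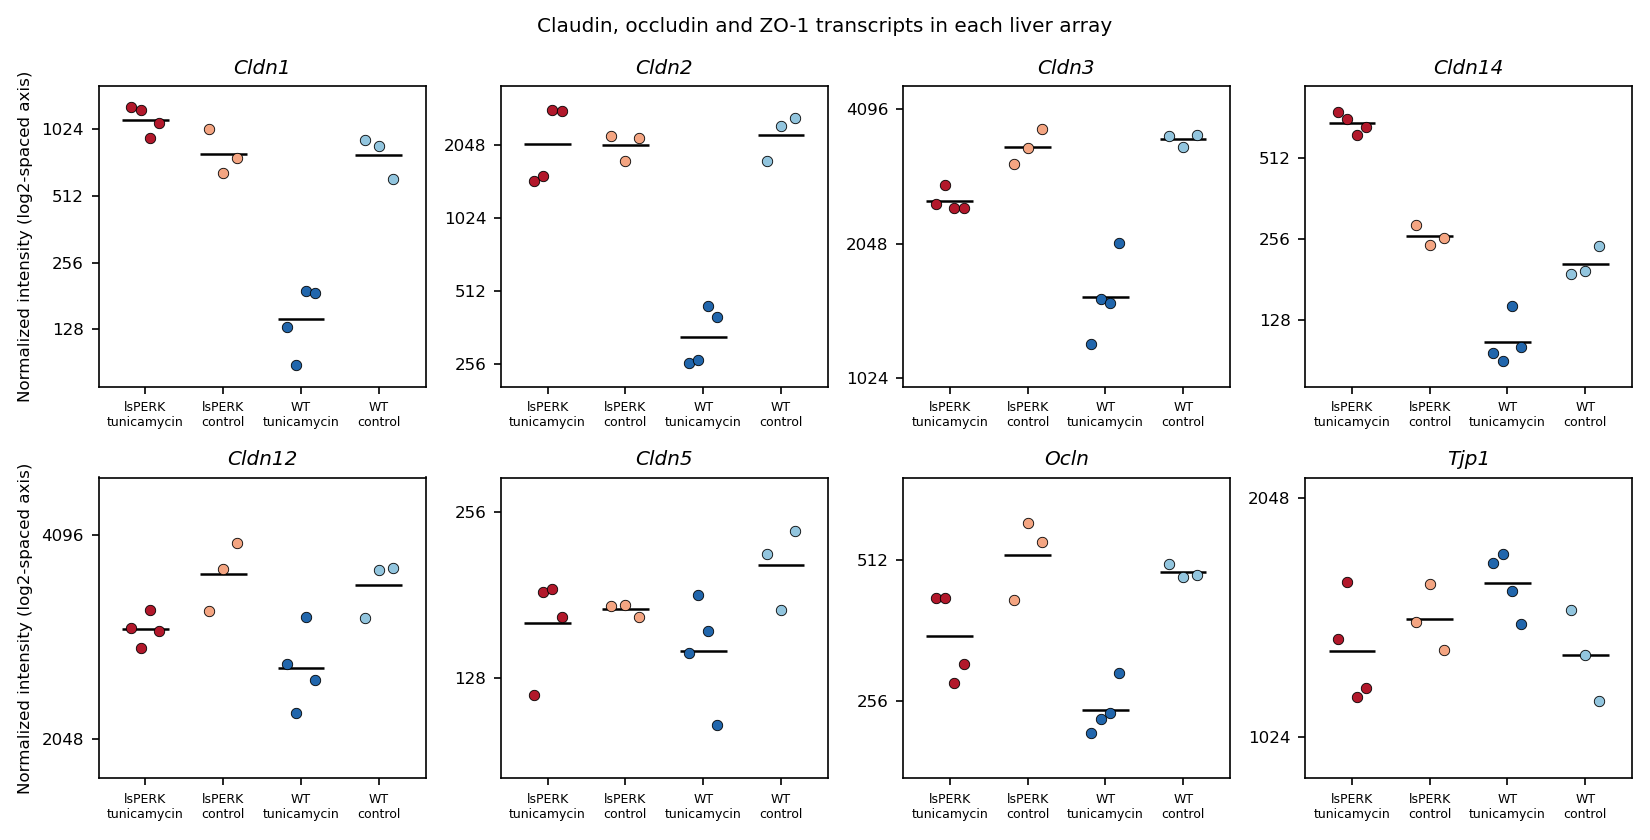
Normalized intensity (log2-spaced vertical axes, each with its own range) of the 8 genes in lsPERK tunicamycin, lsPERK control, WT tunicamycin and WT control liver; points are arrays and bars are means of the log2 values. The WT tunicamycin arrays of Cldn1 and Cldn2 reach 190.2 and 446, below every array of the other groups.

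Cldn1 encodes claudin-1, a sealing claudin that hepatitis C virus also uses to enter human hepatocytes. Its intensity was 1285, 1253, 934 and 1096 in lsPERK tunicamycin liver, against 1025, 649 and 758 in lsPERK control liver. In WT liver it was 131, 88.0, 190.2 and 187 under tunicamycin, against 914, 861 and 610.1 in controls. All WT tunicamycin arrays lay far below every other array, and the other groups overlapped except that the lsPERK tunicamycin arrays all exceeded those of WT control. The WT difference was log2 −2.46 (SE 0.25, limma adjusted p = 3.72e-06), a 5.50-fold fall. In lsPERK liver it was 0.51 (SE 0.25, adjusted p = 0.211, 95% interval −0.04 to 1.06). Under tunicamycin the gene was 7.96-fold higher in lsPERK than in WT liver (log2 2.99, SE 0.24, limma adjusted p = 8.04e-07), and the responses differed by 2.97 (SE 0.36, adjusted p = 0.000135). That difference was 2.53 within the Xist-low arrays and 4.01 within the Xist-high arrays, where each WT group had 1 array.

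Cldn2 encodes claudin-2, the channel-forming claudin, which in rat liver is more abundant towards the central vein. Its intensity was 1457, 1531, 2859 and 2826 in lsPERK tunicamycin liver and 2230.0, 1758 and 2192 in lsPERK control liver. WT tunicamycin liver had 259, 266, 446 and 399.6, against 1756, 2437 and 2634 in WT control liver. As for Cldn1, WT tunicamycin stood alone at the low end, while the other groups overlapped. The gene fell 6.73-fold in WT liver (log2 −2.75, SE 0.27, limma adjusted p = 2.38e-06). In lsPERK liver the difference was 0.01 (adjusted p = 0.99), with a 95% interval of −0.57 to 0.59. Between genotypes under tunicamycin the difference was 2.63 (SE 0.25, limma adjusted p = 4.13e-06), and between the responses 2.76 (SE 0.38, adjusted p = 0.000338).

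The lsPERK tunicamycin arrays of Cldn2 fell into a low and a high pair, and these pairs followed the Xist signal. The Xist-high arrays had 1457 and 1531 and the Xist-low arrays 2859 and 2826. Among lsPERK controls the Xist-low array, at 2192, lay between the Xist-high arrays at 2230.0 and 1758, and in WT control the Xist-high array had the lowest value, 1756. In WT tunicamycin liver the Xist-high array, at 266, lay among the Xist-low arrays at 259, 446 and 399.6. There replicates 1 and 2 had 259 and 266, and replicates 3 and 4 had 446 and 399.6. The low pair of lsPERK tunicamycin arrays was also replicates 1 and 2, so Xist signal and replicate number cannot be told apart there. Cldn2 is X-linked, and the split was not tested. The lsPERK response of Cldn2 was 0.37 within the Xist-low arrays (adjusted p = 0.514) and −0.41 within the Xist-high arrays (adjusted p = 0.188). The difference of responses was 3.19 and 2.32 within these sets. The Xist-low set held 1 lsPERK control array and the Xist-high set 1 array of each WT group, so each fit within a set takes a lone array to vary like the other groups.

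Cldn14 encodes claudin-14, a claudin that restricts cation passage, best known from the inner ear and the kidney. It moved in opposite directions in the genotypes. Its intensity was 761, 719.6, 624 and 669 in lsPERK tunicamycin liver, against 288, 243 and 258 in lsPERK control liver. It was 96.0, 90.0, 144 and 101 in WT tunicamycin liver, against 189, 194 and 241 in WT control liver. No pair of these groups overlapped, so the order was lsPERK tunicamycin, lsPERK control, WT control and WT tunicamycin. The gene rose 2.64-fold in lsPERK liver (log2 1.40, SE 0.16, limma adjusted p = 5.39e-05) and fell 1.95-fold in WT liver (log2 −0.97, SE 0.16, adjusted p = 0.000234). Under tunicamycin the genotypes stood 6.53-fold apart (log2 2.71, SE 0.15, limma adjusted p = 3.71e-08), and the responses by 2.37 (SE 0.23, adjusted p = 3.07e-05). The highest WT control array lay just under the lowest lsPERK control array, and that control difference, 0.34 (SE 0.17), had an adjusted p of 0.992.

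Cldn3 encodes claudin-3, a sealing claudin found along the bile canaliculus. It fell in WT liver and stood between the control and WT tunicamycin levels in lsPERK tunicamycin liver. The intensity was 2521, 2774, 2471 and 2466 in lsPERK tunicamycin, 3091, 3362 and 3698 in lsPERK control, 1226, 1541, 1508 and 2061 in WT tunicamycin and 3575, 3376 and 3594 in WT control liver. The control groups overlapped, and each other pair of neighbouring groups was apart. The WT difference was log2 −1.17 (SE 0.13, limma adjusted p = 9.26e-06), a 2.26-fold fall, and the lsPERK difference −0.40 (SE 0.13, adjusted p = 0.0597). Under tunicamycin it was 1.64-fold higher in lsPERK liver (log2 0.72, SE 0.12, limma adjusted p = 0.00052). The responses differed by 0.77 (SE 0.19, adjusted p = 0.0119), a call lost with the values as deposited (0.31, adjusted p = 0.422), with median centring (0.72, 0.05) and within the Xist-low (0.57, 0.283) or Xist-high arrays (0.93, 0.0581).

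Cldn12 and Cldn5 moved little by their brightest probe sets, and a second Cldn12 probe set, given below, fell further in WT liver. Cldn12 encodes a claudin that lacks the tail motif by which most claudins bind ZO proteins. Its intensity was 2986, 2791, 3176 and 2957 in lsPERK tunicamycin and 3167, 3650.3 and 3993 in lsPERK control liver. It was 2643, 2237, 3102 and 2504 in WT tunicamycin and 3091, 3645 and 3666 in WT control liver, and both pairs overlapped. The WT fall was 1.33-fold (log2 −0.41, SE 0.11, limma adjusted p = 0.00911), and the lsPERK difference −0.27 did not pass (adjusted p = 0.136). In the values as deposited the WT difference turned to 0.01, where the median of all genes was 0.30, and the difference of responses was 0.14 with a 95% interval of −0.21 to 0.49.

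Cldn5 encodes claudin-5, the claudin of endothelial junctions. It had 119, 183, 186 and 165 in lsPERK tunicamycin, 173, 174 and 165 in lsPERK control, 142, 181, 156 and 105 in WT tunicamycin and 215, 169.8 and 237 in WT control liver. All 4 groups overlapped. The WT difference of −0.52 (SE 0.20) passed with an adjusted p of 0.0476 (limma), and the call was lost in 20 of 30 other settings. Of 9 endothelial markers, 2 were called lower in the WT response, where 26.0% of all genes were. Their summed intensity ran from 4086 to 5458 in lsPERK tunicamycin, 5481 to 6659 in lsPERK control, 3731 to 5705 in WT tunicamycin and 4279 to 6363 in WT control liver. Their part in the Cldn5 level was not tested.

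Ocln, the occludin gene, fell in both genotypes. It had 425, 425, 280.1 and 307 in lsPERK tunicamycin and 420.0, 614 and 558 in lsPERK control liver, with overlap. In WT liver it had 219, 234, 241 and 294 under tunicamycin, against 501, 472 and 476 in controls, with a gap between the groups. The differences were log2 −0.57 (SE 0.18, limma adjusted p = 0.0418) in lsPERK and −0.98 (SE 0.18, adjusted p = 0.000424) in WT liver. The lsPERK call was lost in 16 of 30 other settings, among them the array median centring (−0.47, adjusted p = 0.156) and leaving out lsPERK control replicate 2. Under tunicamycin Ocln was 1.44-fold higher in lsPERK liver (log2 0.53, SE 0.16, adjusted p = 0.0216). The 2 Xist-high lsPERK tunicamycin arrays held 425 each and the Xist-low arrays 280.1 and 307, and within the Xist-low arrays the genotype difference was 0.23 (adjusted p = 0.316). The genotype call was also lost with median centring (0.38, adjusted p = 0.152) and with the values as deposited (0.29, adjusted p = 0.422). The difference of responses did not pass (0.41, 95% interval −0.13 to 0.94).

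Tjp1, which encodes the scaffold ZO-1, was the one member with no call in any of the comparisons as fitted here. Its intensity was 1362, 1608, 1151 and 1180.1 in lsPERK tunicamycin, 1430.1, 1597 and 1318 in lsPERK control, 1698, 1739.5, 1563 and 1420.5 in WT tunicamycin and 1479.7, 1301 and 1136 in WT control liver. The groups overlapped throughout. The WT difference was 0.30 (SE 0.13, limma adjusted p = 0.0795), and it was called as a rise in 6 of 30 other settings. Among them were median centring (0.53, adjusted p = 0.0115), the Xist covariate (0.32, adjusted p = 0.014) and the replicate block (0.36, adjusted p = 0.0153). The values as deposited gave 0.82 (adjusted p = 0.0119), where the median of all genes was 0.30. In lsPERK liver the difference was −0.14 (adjusted p = 0.56). Between lsPERK and WT liver under tunicamycin it was −0.28 (adjusted p = 0.0919), and it was called lower in 5 of 30 other settings, among them median centring (−0.41, adjusted p = 0.039), the Xist covariate (−0.35, adjusted p = 0.00879) and the Xist-low arrays (−0.42, adjusted p = 0.0296). The difference of responses, −0.44 (adjusted p = 0.127), was called with the Xist covariate (−0.42, adjusted p = 0.044).

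**Figure D2:**
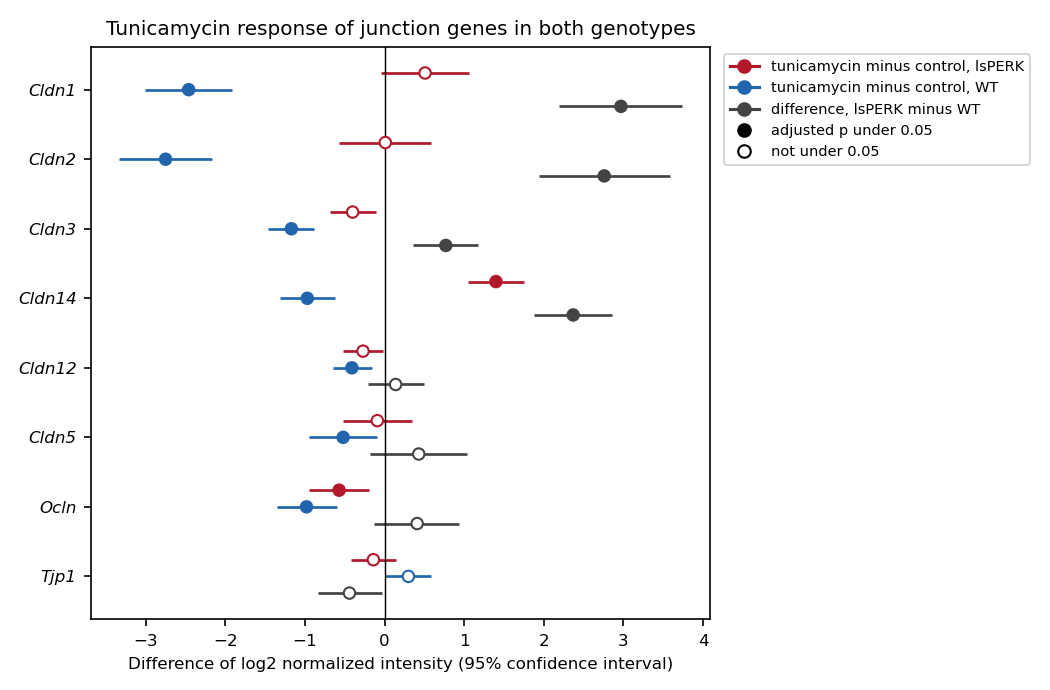
Difference of log2 normalized intensity (horizontal axis) with 95% confidence intervals for the 8 genes: the lsPERK response, the WT response and the difference of responses, lsPERK minus WT; filled points have an adjusted p under 0.05. The WT intervals of Cldn1 and Cldn2 end at −1.91 and −2.17, and Cldn14 is the one gene with a positive called response in lsPERK liver.

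Without tunicamycin, none of the 8 genes was called between lsPERK and WT control liver (0 by limma, and 0 at an unadjusted p under 0.05). Of all genes tested, 0% were called, Eif2ak3 included, so the lack of a call does not show equal levels. The members' differences ran from −0.27 for Cldn5 to 0.34 for Cldn14, with a median of 0.04. The Cldn14 arrays did not overlap between the control groups, as was so for 2.79% of all genes in that direction and for 4.59% in the other.

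Other probe sets of the same genes gave the same direction in the WT response wherever they passed the filter. The dimmer Cldn1 probe set averaged 282 in lsPERK tunicamycin, 156 in lsPERK control, 53.7 in WT tunicamycin and 172 in WT control liver, with a WT difference of −1.68 (limma over 21785 probe sets, adjusted p = 0.0011). The dimmer Cldn2 probe set had a WT difference of −1.95 and a lsPERK difference of −0.05. The 3 further Cldn3 probe sets ranged from −1.14 to −1.08 in WT liver, and in lsPERK liver from −0.39 to −0.38 with adjusted p from 0.0212 to 0.0486, so that Cldn3 passed there by each of these and not by its brightest probe set. The second Cldn12 probe set had a WT difference of −0.65 (adjusted p = 6.26e-05). It passed in lsPERK liver too (−0.31, adjusted p = 0.0368), and was higher in lsPERK than in WT liver under tunicamycin (0.40, adjusted p = 0.00256). The second Ocln probe set had −1.27 in WT liver and did not pass in lsPERK liver (−0.43, adjusted p = 0.199). A further 2 Cldn1 probe sets stayed under the filter threshold of 41.6 on all arrays, at no more than 14.7, and gave no test. Cldn5, Cldn14 and Tjp1 had 1 probe set each.

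**Figure D3:**
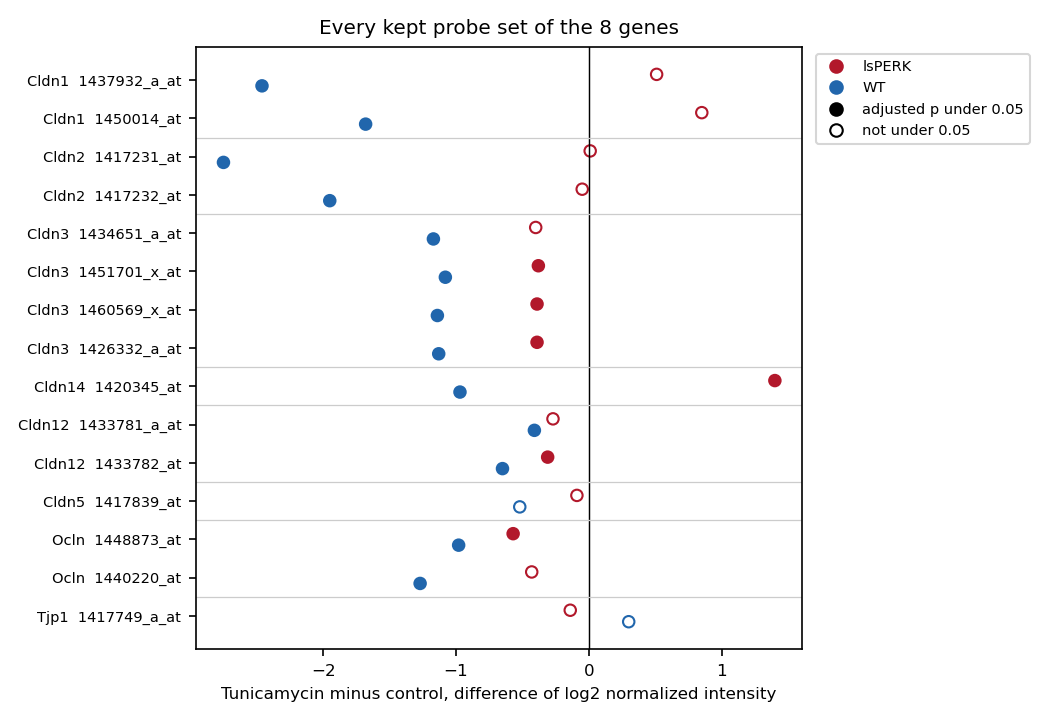
Tunicamycin minus control difference of log2 normalized intensity (horizontal axis) for the 15 probe sets of the 8 genes that passed the filter, in lsPERK and WT liver, with p adjusted over 21785 probe sets. Every WT point but that of Tjp1 lies below 0, and the 2 Cldn1 probe sets lie at 0.51 and 0.85 in lsPERK liver.

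The genes whose level ran most like each called member over the 14 arrays were found by Pearson correlation, given as a description, since the arrays share the 4 groups. For Cldn1 these were Fkbp4 (r = 0.979), Mrps25 (0.974) and Trappc1 (0.973), and for Cldn2 Mvb12a (0.979), Nfs1 (0.972) and Hsd11b1 (0.971). For Cldn3 they were Tradd (0.98), Ybx1 (0.972) and Acy1 (0.971), and for Ocln Rnf139 (0.969), Ppp1r16a (0.958) and Acy1 (0.955). Cldn14 ran most like Hspa4l (0.975), 4833439L19Rik (0.968) and Coa3 (0.965), and Cldn12 like Casd1 (0.953), Aldh1l1 (0.945) and Sardh (0.942). Cldn5 had the weakest partners, 9430078K24Rik (0.86), Grpel2 (0.822) and Rab14 (0.816).

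Other genes of the tight junction did not move as one. Of the other claudins, 15 were on the array and 5 were tested. Under tunicamycin 1 of the 5, Cldnd1, was higher in lsPERK than in WT liver (log2 0.75, SE 0.17, limma adjusted p = 0.00303). Of all genes 18.5% were higher there. Of 11 further membrane proteins, 2 rose in lsPERK liver, and 3 rose and 2 fell in WT liver. These are 18.2% and 45.5% called, near the 15.7% and 46.7% over all genes. Cxadr, a virus receptor of the junction, rose in lsPERK (0.90, adjusted p = 0.0158) and in WT liver (2.03, adjusted p = 7.7e-06), with means of 1982 in lsPERK tunicamycin, 1059 in lsPERK control, 3527 in WT tunicamycin and 862 in WT control liver. Lsr, a protein of the corners where cells meet, averaged 2731, 2637, 1062 and 2098 in the same order, and its responses differed by 1.03 (SE 0.23, limma adjusted p = 0.00739). Ildr2 of the same family fell in WT liver (−1.84), and Igsf5 rose in both (1.05 in lsPERK and 0.33 in WT liver). The third of those that rose in WT liver, Bves, passed the filter only through its WT tunicamycin arrays, so its call is not read further.

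Of 18 scaffold and signalling proteins of the tight junction, 3 rose and 1 fell in lsPERK liver, and 3 rose and 6 fell in WT liver, with list medians of −0.01 and −0.11 against −0.02 and −0.13 over all genes. Over all genes 15.7% were called in lsPERK and 46.7% in WT liver, near the list's 4 and 9 of 18. Mpdz, a multi-PDZ scaffold, fell in lsPERK (−1.14, adjusted p = 9.74e-05) and in WT liver (−2.33, adjusted p = 2.87e-08). Cgn, which encodes cingulin, averaged 189.7 in lsPERK tunicamycin, 157 in lsPERK control, 49.9 in WT tunicamycin and 177 in WT control liver, and its responses differed by 2.10 (SE 0.36, limma adjusted p = 0.00146). Amot, which encodes angiomotin, averaged 473, 343, 152 and 343 in that order, with responses apart by 1.64 (SE 0.19, adjusted p = 0.000109). The Magi3 responses differed by 0.79 (adjusted p = 0.00772), and those of Magi1 in the other direction by −0.87 (adjusted p = 0.0329).

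**Figure D4:**
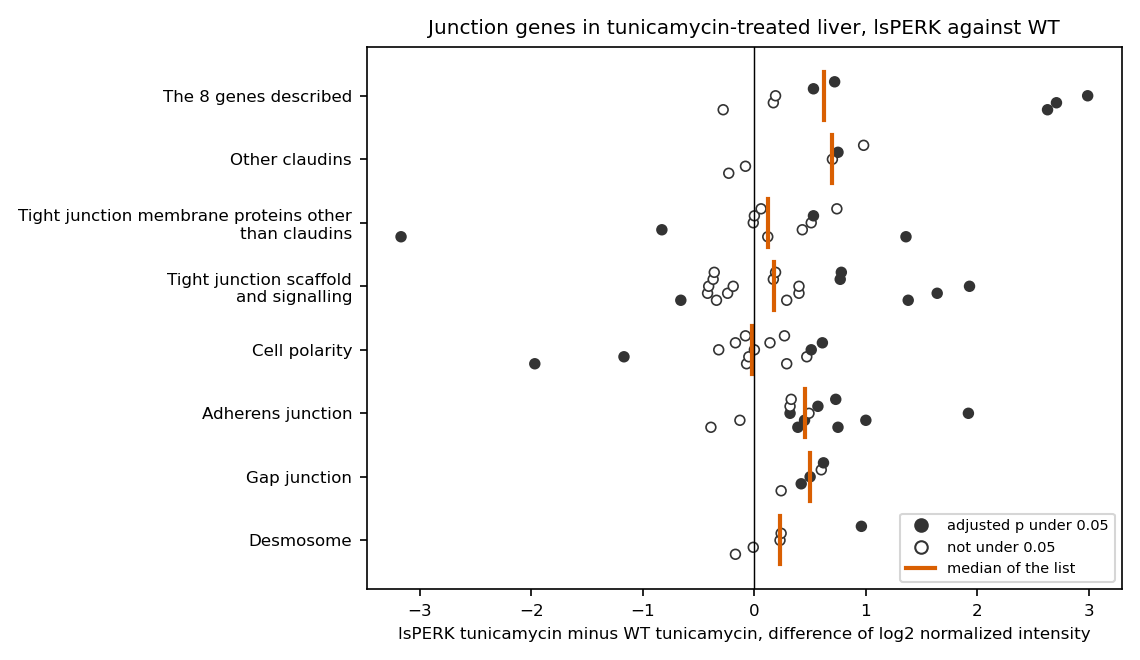
lsPERK tunicamycin minus WT tunicamycin difference of log2 normalized intensity (horizontal axis) for the 8 genes and the 7 lists of other junction genes; each point is a gene, filled where the adjusted p is under 0.05, and the bar is the list's median. Cldn1, Cldn2 and Cldn14 lie at 2.99, 2.63 and 2.71, above each of the 71 other junction genes tested. The 8 genes and the lists were chosen with earlier results of these data known, so this order is a description only.

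Markers of liver zones and of other cells are given beside these genes, where 7.29% of all genes fell in lsPERK liver and 26.0% in WT liver. Of 8 pericentral markers 1 fell in lsPERK and 5 fell in WT liver, and their summed intensity was 61069 to 69299 in lsPERK tunicamycin, 67612 to 75352 in lsPERK control, 58786 to 64422 in WT tunicamycin and 67804 to 74305 in WT control liver. Of 6 tested periportal markers 1 fell in lsPERK and 3 fell in WT liver, with sums of 26439 to 33775 in lsPERK tunicamycin, 25901 to 30318 in lsPERK control, 16542 to 28266 in WT tunicamycin and 29943 to 35151 in WT control liver. Under tunicamycin 2 pericentral and 3 periportal markers were higher in lsPERK than in WT liver, as were 18.5% of all genes. Of 29 tested markers of cholangiocytes, endothelium, Kupffer and stellate cells, lymphocytes, neutrophils and red cells, 1 rose in lsPERK liver and 4 fell in WT liver, against 8.42% of all genes called higher in lsPERK and 26.0% called lower in WT liver. The marker that rose in lsPERK liver was 1 of 3 tested for cholangiocytes, whose median there was 1.44, while Krt7 and Cftr lay under the filter. These 3 summed to 153 to 270.0 in lsPERK tunicamycin and 102 to 127 in lsPERK control liver. In WT liver the sums were 156 to 210.0 under tunicamycin and 122 to 196 in controls. The part of these cells and zones in the claudin levels was not tested.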

How the data were processed

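RNA of 14 mouse liver samples was measured on 1 oligonucleotide array each. The authors deposited 1 linear intensity per probe set, with MAS5 and GCOS named per the submitters' processing notes (scaling target not given in the sources used). Medians of deposited intensity per array spanned 34.6 to 53.5, so log2 values (gap 0.63, above the limit of 0.5) were quantile normalized. Of 45101 probe sets, 64 were controls and 34945 had 1 gene by the platform annotation, and 21785 exceeded the pooled median (41.6) on at least 3 arrays. Each of 12076 genes was read by its brightest kept probe set. A limma 3.58.1 model (R 4.3.3) had 1 mean for each group (trended eBayes, 10 residual degrees of freedom, 5 two-sided contrasts), and p-values were Benjamini-Hochberg adjusted over all genes. The fit was tested on simulated data. Figures were drawn with Python 3.11.15 and matplotlib 3.10.9. The number of arrays limits the precision. The text names all 8 members, the 3 genes most correlated with each called member, and a selection of the called genes of the lists. That selection does not always follow the order of p. Members and lists were chosen with earlier results of these data known. Alternatives covered filter, scaling, low values, variance model, probe sets, covariates, a block for the replicate number and leaving out arrays in turn. Arrays by Xist signal were added after seeing the data.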

Additional observations from a re-analysis of the deposited data

Results flagged for a closer look

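The tunicamycin response differed between the genotypes for 4 of the 8 genes by the limma contrast of both responses, lsPERK minus WT. The difference was log2 2.97 for Cldn1, 2.76 for Cldn2, 0.77 for Cldn3 and 2.37 for Cldn14, with adjusted p of 0.000135, 0.000338, 0.0119 and 3.07e-05. For Cldn14 the responses also had opposite signs, with all lsPERK tunicamycin arrays above their controls and all WT tunicamycin arrays below theirs. In 16 groups of 4 arrays (8 genes, both tunicamycin groups), 0 held an array far from the others by Dixon's test.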

How the results depend on the processing

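The WT falls of Cldn1, Cldn2, Cldn3 and Cldn14, their higher level in lsPERK than in WT liver under tunicamycin, the lsPERK rise of Cldn14 and the difference of responses for Cldn1, Cldn2 and Cldn14 kept direction and call in all 30 settings (29 for the difference), 2 of which, the Xist-low and Xist-high arrays, leave some groups with 1 array. Their WT differences ran from −3.38 to −1.97, −2.93 to −2.24, −1.31 to −0.72 and −1.11 to −0.52. Of the 1012 values compared, 924 kept direction and call, among them values not called in either fit. Between control groups only Cldn5 and Cldn14 were compared in this way. In the values as deposited the median of all genes was 0.30 in the WT response and −0.42 in the difference of responses, against −0.13 and 0.08 after quantile normalization and 0.01 and −0.01 after median centring. As deposited, Cldn12 turned to 0.01 in the WT response, Cldn5 to −0.03 between tunicamycin groups and to 0.11 between control groups, and the difference of responses to −0.14 for Cldn5, −0.28 for Cldn12 and −0.15 for Ocln. The lsPERK response of Cldn2, 0.01, turned to −0.02 (mean of probe sets), −0.08 (Xist covariate), −0.05 (3′ to 5′ signal covariate), −0.11 (replicate block) and −0.41 (Xist-high arrays), and ran from −0.15 to 0.18 with 1 array left out (below 0 without lsPERK tunicamycin replicate 3 or 4 or lsPERK control replicate 2). The lsPERK response of Cldn5 ran from −0.16 to 0.06 with 1 array left out (above 0 without lsPERK tunicamycin replicate 1) and turned to 0.09 in Xist-low arrays, and its tunicamycin genotype difference to −0.29 in Xist-high arrays. The number of members called in the lsPERK response, 2, was 1 without the filter, as deposited, with median centring, without the trend and in Xist-high arrays, since Ocln was lost. With 1 array left out the members called numbered 1 to 3 in the lsPERK response, 6 to 7 in the WT response, 4 to 5 between tunicamycin groups, 0 between controls and 4 in the difference of responses. The arrays whose omission left 1 in the lsPERK response were lsPERK tunicamycin replicates 3 and 4, lsPERK control replicates 2 and 3, WT tunicamycin replicate 3 and WT control replicates 2 and 3, again through Ocln. Same-numbered arrays tended to deviate together, though not in all cases: 13 of 19 pairs had a correlation over 0.1 (range −0.37 to 0.42). The median was 0.24, against −0.17 for different numbers. Deviations were taken from each group's mean, which ties these medians to each other, so the second adds no separate support. The main fit does not use the replicate number, and the labels do not say what it stands for. In WT tunicamycin liver the deposited array medians were 53.5 and 52.0 in replicates 1 and 2. They were 35.5 and 37.6 in replicates 3 and 4. In lsPERK tunicamycin liver they were 41.9, 43.0, 43.9 and 37.3 in order of number. With the replicate number as a block, members called were 2, 7, 6, 0 and 4 in the lsPERK response, the WT response, between tunicamycin groups, between controls and in the difference. Under the block, Cldn3 was called in place of Ocln in the lsPERK response (−0.46, adjusted p = 0.0405, and −0.58, 0.0748) and Tjp1, as higher, in place of Cldn5 in the WT response (0.36, 0.0153, and −0.45, 0.0991), and Tjp1 was called lower between tunicamycin groups (−0.28, 0.0332). In Xist-high arrays the Cldn1 difference of responses was 4.01 and the Ocln lsPERK response −0.26. The cause of these shifts was not tested.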

Other observations

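Genes of the adherens junction, the belt of cadherin contacts below the tight junction, fell in WT liver in 9 of 13 cases with 0 rising, and in lsPERK liver in 2 of 13 with 0 rising. Over all genes 26.0% fell in WT and 7.29% in lsPERK liver, and the list's 15.4% called in lsPERK liver is near the 15.7% over all genes. Their median log2 difference was −0.18 in lsPERK and −0.67 in WT liver. Under tunicamycin 8 of the 13 were higher in lsPERK than in WT liver, as were 18.5% of all genes. Cdh1, which encodes E-cadherin and also stands among the periportal markers, averaged 593 in lsPERK tunicamycin, 365 in lsPERK control, 157 in WT tunicamycin and 358 in WT control liver (difference of responses 1.89, SE 0.51, limma adjusted p = 0.0197). Nectin3 fell by 0.94, Vcl (vinculin) by 1.09 and Afdn (afadin) by 0.86 in WT liver.

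Desmosome genes numbered 5, and Dsg2 fell alike in both genotypes (−1.14 in lsPERK and −1.17 in WT liver), while Pkp2 rose in both (0.78 and 0.79). Dsp, which encodes desmoplakin, fell in WT liver (−1.16, adjusted p = 6.44e-05), with responses apart by 0.97 (limma adjusted p = 0.0106). Of 5 gap junction genes, Gjb1, the main hepatocyte connexin, fell in lsPERK (−0.76) and in WT liver (−1.07), while Gja4 (0.84, adjusted p = 0.00682) and Gjb2 (0.35, adjusted p = 0.0448), which encode other connexins, rose in lsPERK liver. Under tunicamycin 3 of the 5 were higher in lsPERK than in WT liver, where 18.5% of all genes were. Of 14 polarity genes, 2 fell in lsPERK liver, and 4 rose and 4 fell in WT liver, or 14.3% and 57.1% called against 15.7% and 46.7% over all genes. Stk11, first by p in both responses, fell alike in the genotypes (−0.66 in lsPERK and −0.69 in WT liver). Prkcz, an atypical protein kinase C, fell in lsPERK (−0.89) and rose in WT liver (0.82), and these responses differed by −1.71 (SE 0.31, adjusted p = 0.0019).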
